A study of Mus musculus with 4 samples.

Results

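The potassium channel genes of the mouse genome carry symbols that begin with Kcn, and they were taken from the RNA-seq tables by symbol alone. A gene was included when its symbol was Kcn, then one or more lower-case letters, then digits, and Kcnj10 was left out by this rule. In this way 91 of the 21828 genes analyzed were chosen, each with 1 line in every table. No expression value was used to choose them.

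Potassium channels let potassium ions leave or enter the cell, and they set the resting potential and shape the firing and the light responses of retinal neurons. Inward rectifiers and two-pore domain channels are open near rest and carry the background conductance that is prominent in glia. Voltage-gated channels open on depolarization, calcium-activated channels follow the calcium level of the cell, and silent and auxiliary subunits modify the channels with which they assemble.

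RNA was measured in retinal cells of pHes1-EGFP transgenic mice, in which a fragment of the Hes1 promoter drives a destabilized EGFP, and the labels give the strain as FVB/N. EGFP-positive cells (pHes1_EPC) and EGFP-negative cells (pHes1_ENC) were sorted from retinas at postnatal day 1 (P1) and postnatal day 4 (P4), with no treatment in any group. There was 1 library for each fraction at each age, 4 in all. The comparisons ask which channels differ between the EGFP-positive fraction and the other retinal cells at each age. The study describes the EGFP-positive cells as enriched in Müller glia, and it proposes that they resemble retinal progenitors in gene expression. All cells came from mice with the transgene, so a library is a sorted mixture defined by the activity of that promoter fragment and not by cell type, and how many animals were pooled is not given in the sources used here.

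Expression is given as FPKM, fragments per kilobase of transcript scaled to library size, with the 95% interval that Cufflinks lists. With 1 library in each group there are no replicates and no test was possible, so every difference below describes these libraries. A difference is log2(FPKM + 1) in one library minus that in the other, which understates the fold of genes with low values, and a gene is counted as higher or lower when this difference is past 1. Ranges after ratios come from the Cufflinks intervals and cover estimation error within a library only. Values in sets of 4 list the P1 libraries before the P4 libraries and, within each age, pHes1_ENC before pHes1_EPC.

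Hes1, whose promoter drives the reporter, stood at FPKM of 16.6, 105, 3.59 and 93.5, high in both pHes1_EPC libraries. The fractions also differed in marker genes of retinal cell types. The 10 Müller glia markers summed to 495, 1469, 325 and 2933, the 8 rod markers to 427, 28.9, 3024 and 587, and the 8 ganglion cell markers to 40.2, 21.5, 9.84 and 4.50. Of the 10 Müller markers, 7 were higher in pHes1_EPC at P1 and 8 at P4. Clu was the 1 that was lower, at P1 (3.33 in pHes1_ENC and 0.997 in pHes1_EPC). Of the amacrine markers, 4 of 6 were analyzed. Gad1 and Slc32a1, which mark inhibitory amacrine cells, stood at 16.2 and 20.4 in P1 pHes1_ENC and at or below 2.84 in the other libraries. The other analyzed amacrine markers had other patterns. Slc6a9 stood at 19.1, 1.72, 62.6 and 10.1, highest in P4 pHes1_ENC. Pax6 stood at 246, 127, 28.3 and 126, lower in pHes1_EPC at P1 and higher at P4. The 6 microglia markers summed to 0.913, 7.53, 4.02 and 5.94. The 6 bipolar markers summed to 10.2, 5.41, 25.4 and 11.4, and the 4 horizontal cell markers to 9.87, 1.35, 4.65 and 1.20. The 6 endothelial markers summed to 63.4, 212, 14.8 and 193. Kdr was the largest part in every library, and Cldn5, at 16.3, 3.49, 2.59 and 4.06, was most of the rest. At P1 Cldn5 was lower in pHes1_EPC (difference -1.95) and Kdr was higher (2.13). The endothelial gene Cdh5 was at most 0.0705. The 6 pericyte markers summed to 2.26, 10.9, 0.540 and 4.76. Notch3 was the largest part of this sum in every library, at 1.36, 8.33, 0.289 and 2.88, while Rgs5 was at most 0.144. The 6 pigment epithelium markers summed to 14.6, 81.1, 17.0 and 415, of which Rlbp1, also on the Müller list, was 13.1, 80.4, 13.1 and 384. The 4 red blood cell markers summed to 108, 0.353, 322 and 3.95. Fewer cells of a type and less RNA per cell cannot be told apart in such bulk samples.

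The summed expression of potassium channel genes was higher in the EGFP-negative than in the EGFP-positive library at both ages. Their FPKM came to 199.9, 96.0, 148.9 and 109.5 in total, which was 0.0721%, 0.0326%, 0.0490% and 0.0294% of the FPKM of all genes. An FPKM of 1 or more was reached by 37, 16, 24 and 18 of the 91 genes (40.7%, 17.6%, 26.4% and 19.8%), whereas the share of all genes at that level lay between 52.5% and 55.5% in every library. The broadest set of channel genes was thus in P1 pHes1_ENC, where 15 genes reached an FPKM of 5, against 3, 9 and 5 in the other libraries. The share of all genes at an FPKM of 5 is not given here.

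A single gene carried much of the signal in 3 of the libraries. Kcnk1 held 36.3% of the summed FPKM in P1 pHes1_EPC and 24.5% in P4 pHes1_EPC, and Kcnv2 held 23.2% in P4 pHes1_ENC. In P1 pHes1_ENC the leading gene, Kcna5, held 11.5%, and the 5 leading genes together held 33.7%, against 52.3% to 60.3% in the other libraries. Without Kcnk1 the channel genes summed to 190.0, 61.1, 146.0 and 82.6. Without Kcnv2, left out after the data had been seen, they summed to 193.2, 95.6, 114.3 and 105.0, so that at P4 the sums of the fractions were close. The FPKM of all genes came to 303877 in P4 pHes1_ENC and 372016 in P4 pHes1_EPC, so as shares the P4 values were further apart.

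In 40 of the 91 genes (44.0%) an FPKM of 1 or more was found in at least 1 library, compared with 59.3% of all genes. Of these 40, 22 were highest in P1 pHes1_ENC, 8 in P4 pHes1_ENC, 6 in P1 pHes1_EPC and 4 in P4 pHes1_EPC. The matching split over all genes is not given here. The other 51 genes stayed below 1 in every library, 26 of them below 0.1, and Kcnk15 and Kcnk16 were listed at 0 in all 4 libraries. The interval was narrow for high values, with a half-width of 3.87% of the FPKM for Kcnv2 in P4 pHes1_ENC, and wide for low values, with 81.0% for Kcnn4 in the same library. Overlap with another gene line was found for 11 of the 91 genes, and of those among them with an FPKM of 1 or more, the overlapping gene reached 0.954 for Kcnd3, 0.564 for Kcnk3, 0.380 for Kcnn2, 0.326 for Kcnab1, 0.122 for Kcnmb4 and 0.0114 for Kcnip1.

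**Figure D1:**
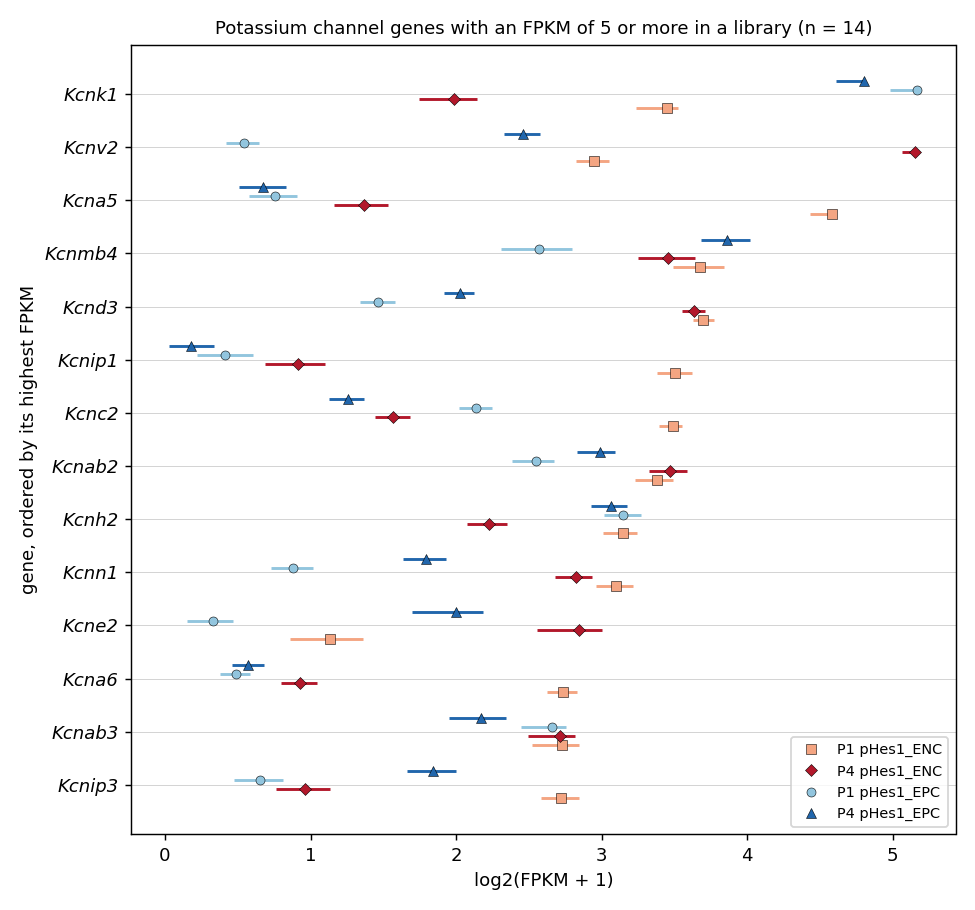
Level of 14 potassium channel genes with an FPKM of 5 or more in a library, as log2(FPKM + 1), ordered from the top by the highest FPKM of each gene, with points for the 4 libraries and lines for the 95% Cufflinks intervals. Kcnk1 is highest in the 2 pHes1_EPC libraries (34.9 and 26.8 FPKM), Kcnv2 in P4 pHes1_ENC (34.6) and Kcna5 in P1 pHes1_ENC (23.0).

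At P1, 22 of the 91 genes (24.2%) were lower in pHes1_EPC than in pHes1_ENC, where 6.79% of all genes were, and 3 (3.30%) were higher, where 6.1% of all genes were. At P4, 11 genes (12.1%) were lower in pHes1_EPC, compared with 5.42% of all genes, and 5 (5.49%) were higher, compared with 9.85%. The Cufflinks intervals of the fractions did not overlap for any of these genes. This held for nearly all counted genes, since requiring it left 6.78% of all genes lower and 6.07% higher at P1. At P4 it left 5.42% lower and 9.77% higher. The median difference over the 91 genes was -0.15 at P1, with 71 below 0 and 16 above, and -0.01 at P4, with 48 below 0 and 38 above, while the median over all genes was 0 at both ages. Of all genes, 8853 were below 0 and 8720 above at P1, and 7616 were below and 9856 above at P4.

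The differences repeated in part between the ages, which share no library in these comparisons. The 11 genes that were lower in pHes1_EPC at P4 were all among the 22 at P1, which is 11 of 11 and 11 of 22, and 12.1% of the 91 genes were thus lower at both ages against 3.24% of all genes. Over all genes, 707 of the 1184 lower at P4 and of the 1483 lower at P1 were lower at both ages. The 11 of 22 thus lay near the share of all genes. Among the 11 channel genes lower at both ages were Kcnab1, Kcnb2, Kcnc1, Kcnd3, Kcnh6, Kcnk3, Kcnma1, Kcnn1 and Kcnv2. Their differences ran from -2.41 to -1.05 at P1 (median -1.83) and from -2.69 to -1.02 at P4 (median -1.39). The genes that were higher in pHes1_EPC at both ages were Kcnk1 and Kcnn4, 2 of 91 (2.20%), where 4.61% of all genes were.

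**Figure D2:**
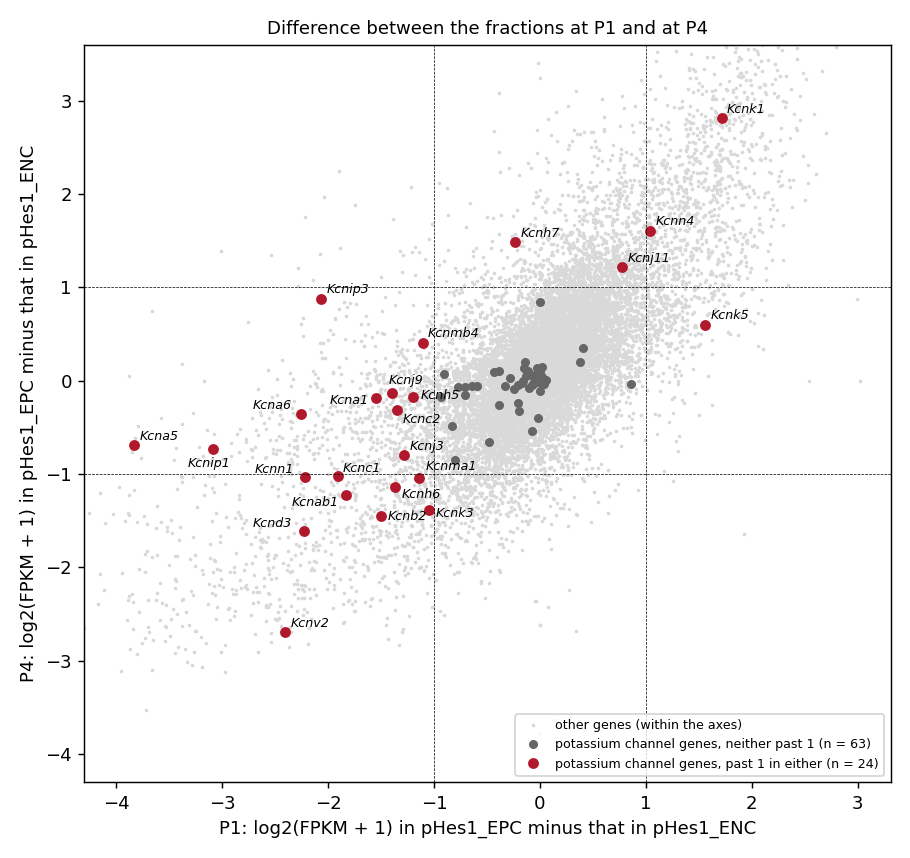
Difference in log2(FPKM + 1) between pHes1_EPC and pHes1_ENC at P1 (horizontal axis) and at P4 (vertical axis), with 1 point for each gene drawn (87 of the 91 potassium channel genes), dashed lines at differences of 1 and -1, and potassium channel genes past 1 in size at either age in red. Genes lower at both ages, such as Kcnv2 (-2.41 and -2.69), lie at the bottom left, and Kcnk1 (1.72 and 2.81) and Kcnn4 (1.04 and 1.61) lie at the top right.

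The promoters of 4 genes that stood on opposite sides of these comparisons are shown, since the fractions were sorted by activity of a Hes1 promoter fragment. Kcnk1 and Kcnn4 were higher in pHes1_EPC at both ages, Kcnd3 was lower at both ages, and Kcna5 showed the largest difference at P1. The sequences are the 250 bases before the transcription start from RefSeq on GRCm38.p6, whereas all gene coordinates below are on NCBI37/mm9. Capitals mark CACNAG, the N-box core bound by Hes repressors, or TAATCC, the core bound by the photoreceptor factor Crx, searched on both strands.
Kcnk1: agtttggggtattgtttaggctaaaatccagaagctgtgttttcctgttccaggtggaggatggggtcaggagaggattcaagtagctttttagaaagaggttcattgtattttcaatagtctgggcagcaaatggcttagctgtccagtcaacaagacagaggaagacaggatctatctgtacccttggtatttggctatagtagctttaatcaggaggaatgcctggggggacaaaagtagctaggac
Kcnn4: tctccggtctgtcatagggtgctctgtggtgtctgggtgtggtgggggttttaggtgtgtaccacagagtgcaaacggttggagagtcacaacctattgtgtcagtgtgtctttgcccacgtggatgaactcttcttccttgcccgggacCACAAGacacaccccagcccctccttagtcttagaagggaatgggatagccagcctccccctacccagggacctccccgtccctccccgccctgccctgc
Kcna5: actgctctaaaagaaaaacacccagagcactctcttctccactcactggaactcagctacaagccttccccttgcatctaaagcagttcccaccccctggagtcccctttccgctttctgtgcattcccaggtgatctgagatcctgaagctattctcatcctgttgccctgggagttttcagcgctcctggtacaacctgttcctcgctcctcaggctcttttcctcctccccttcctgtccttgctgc
Kcnd3: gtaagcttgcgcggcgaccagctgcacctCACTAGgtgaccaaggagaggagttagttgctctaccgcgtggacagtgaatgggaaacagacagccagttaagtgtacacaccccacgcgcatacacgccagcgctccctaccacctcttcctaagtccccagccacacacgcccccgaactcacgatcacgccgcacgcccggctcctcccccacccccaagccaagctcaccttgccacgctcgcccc
They lie at chr8:125994852-125995101 on the plus strand, chr7:24370013-24370262 on the plus strand, chr6:126535556-126535805 on the minus strand and chr3:105451640-105451889 on the plus strand, in the order printed. CACNAG was found once each for Kcnn4 and Kcnd3 and TAATCC in none, so that no matches overlapped. The GC content was 44.4%, 58.8%, 53.2% and 62.8%, with 0, 6, 3 and 18 CpG, in the same order.

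Promoter entries were matched by symbol for 66 of the 91 genes (91 entries), and 25 genes had none. CACNAG was present in 38 of the 91 entries (41.8%) and in 36.7% of all 32851 promoters of this length, and TAATCC was present in 1 (1.10%) and in 6.25% of all. The median GC content was 58.4% in the entries of channel genes and 52.4% in all. Such matches are descriptions of letters and not binding sites.

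**Figure D3:**
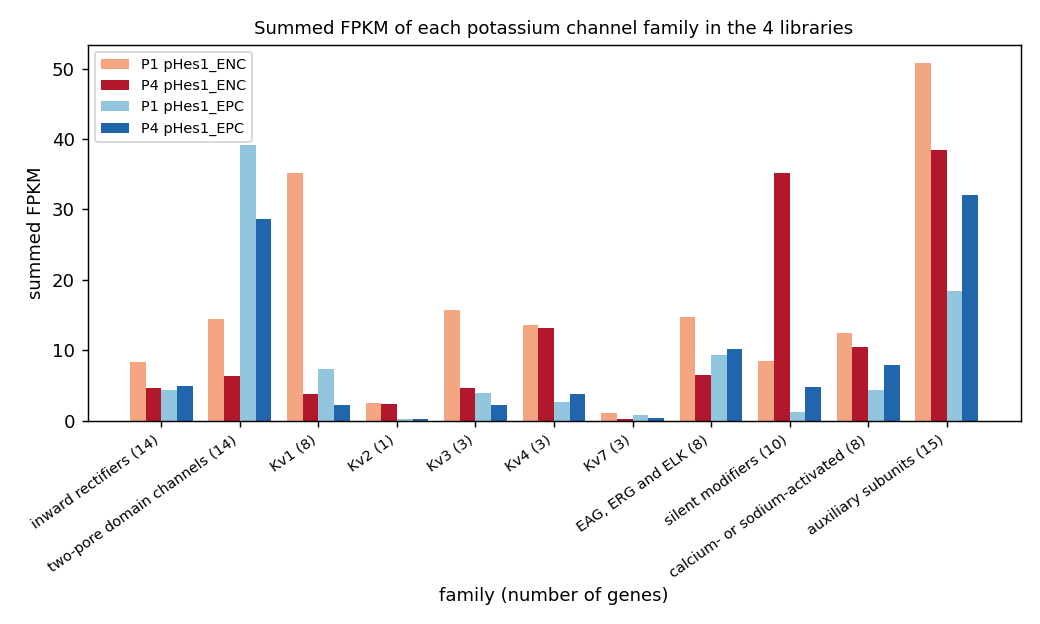
Summed FPKM of the 11 families of potassium channel genes in the 4 libraries, with the number of genes shown for each family in brackets and bars that start at 0. The bars of two-pore domain channels are taller in pHes1_EPC (39.2 at P1) than in pHes1_ENC (14.5), those of Kv1 channels are tallest in P1 pHes1_ENC (35.2), and those of silent modifiers in P4 pHes1_ENC (35.2).

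The 14 inward rectifiers measured here, which pass inward current more easily than outward current, were expressed at low levels. They summed to FPKM of 8.39, 4.39, 4.69 and 4.95, and 11 of the 14 stayed below 1 in every library, with Kcnj14 the highest of these at 0.645. The excluded member of the family, Kcnj10, the main inward rectifier of Müller glia, stood at 3.01, 15.6, 0.879 and 20.7, above the sum of the other 14 in both pHes1_EPC libraries.

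Kcnj11, the pore of the ATP-sensitive channel (chr7:53352493-53356134), was the only one of the 14 counted as higher in pHes1_EPC. Its FPKM were 1.12, 2.63, 0.542 and 2.58, so both pHes1_EPC libraries lay above both pHes1_ENC libraries, and the ratio was 2.34 at P1 (range 1.64 to 3.45) and 4.75 at P4 (3.0 to 8.27). The difference was 0.77 at P1 and 1.21 at P4, and with quantile normalization that at P4 was 0.96 and no longer past 1. Its regulatory subunits, the sulfonylurea receptors, were low, with Abcc8 at 0.0496 to 0.417 and Abcc9 at or below 0.0250.

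The G protein-gated channels Kcnj3 and Kcnj9, which hyperpolarize neurons after transmitter binding, went the other way at P1. Kcnj3 stood at 3.13, 0.697, 2.37 and 0.939, a difference of -1.28 at P1 and -0.80 at P4. Kcnj9 stood at 2.48, 0.323, 0.384 and 0.264, so that P1 pHes1_ENC alone was high (difference -1.39 at P1 and -0.13 at P4). Their partners Kcnj5 and Kcnj6 were at most 0.0178 and 0.152.

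Of the remaining inward rectifiers, Kcnj2 and Kcnj12, the classic strong rectifiers, reached 0.175 and 0.225, and Kcnj4, of the same group, reached 0.392. Kcnj16, which forms mixed channels with Kcnj10, was at most 0.00472, and Kcnj15 and Kcnj1 at most 0.00470 and 0.0153. The vascular ATP-sensitive pore Kcnj8 stood at 0.0366, 0, 0.0198 and 0.0388. Kcnj13, an inward rectifier of the pigment epithelium, stood at 0.381, 0.133, 0.480 and 0.504, and its locus lies within that of Gigyf2 (14.7 to 19.4), whose reads cannot be separated from it by strand in these libraries.

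Two-pore domain channels had a higher sum in pHes1_EPC than in pHes1_ENC at both ages, and most of the pHes1_EPC sum was Kcnk1. The 14 genes summed to 14.5, 39.2, 6.30 and 28.7. Kcnk1, which encodes the weakly inward rectifying channel TWIK (chr8:128519002-128554585), stood at 9.93, 34.9, 2.96 and 26.8, higher in both pHes1_EPC libraries than in either pHes1_ENC library. The ratio of pHes1_EPC to pHes1_ENC was 3.52 at P1 (range 2.91 to 4.11) and 9.07 at P4 (6.84 to 11.4). The wider gap at P4 went with a lower level in pHes1_ENC, where P1 was 3.36 times P4 (2.46 to 4.47), while in pHes1_EPC P1 was 1.30 times P4 (1.14 to 1.48).

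Kcnk5, an alkaline-activated channel also expressed in epithelia (chr14:20959280-21001004), was the other family member counted as higher. It stood at 0.529, 3.51, 0.224 and 0.852, so that P1 pHes1_EPC was the high library, with a ratio of 6.63 at P1 (4.45 to 10.7) and a difference of 1.56 at P1 and 0.60 at P4. In pHes1_EPC it was lower at P4 than at P1, by a difference of -1.28.

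The acid-sensitive channel Kcnk3 (TASK) went the opposite way and was lower in pHes1_EPC at both ages. It stood at 1.26, 0.0928, 2.59 and 0.372 (differences -1.05 and -1.39, the former -0.87 with quantile normalization), and both pHes1_ENC libraries lay above both pHes1_EPC libraries. The mechanically gated channel Kcnk2 (TREK) was at 1.38 in P1 pHes1_ENC and at or below 0.271 elsewhere. The 10 remaining genes of the family stayed below 1, with a highest value of 0.843, and included Kcnk13, a microglial channel, at most 0.0943.

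Kv1 channels, which hold down excitability around threshold, showed a wide gap between the fractions at P1 and a narrow one at P4. The 8 genes summed to 35.2, 7.31, 3.71 and 2.25. Kcna5, a delayed rectifier (chr6:126482569-126485573), stood at 23.0, 0.687, 1.58 and 0.598, which made it the highest channel gene in P1 pHes1_ENC. There it was 33.5 times the level in P1 pHes1_EPC (range 23.5 to 47.1) and 14.6 times that in P4 pHes1_ENC (10.9 to 18.8), while the difference between the fractions at P4 was -0.69.

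Kcna6 and Kcna1, delayed rectifiers whose genes lie next to Kcna5 on chromosome 6 (chr6:126658347-126690692 and chr6:126586481-126595819), were also high in P1 pHes1_ENC. Kcna6 stood at 5.67, 0.400, 0.902 and 0.486, a difference of -2.25 at P1 and -0.36 at P4. Kcna1 stood at 2.05, 0.0478, 0.161 and 0.0176, a difference of -1.54 at P1 and -0.19 at P4. In each of these 3 genes P1 pHes1_ENC was the single high library.

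Kcna3, a channel of lymphocytes and microglia that is also found in neurons, had another pattern and was highest in P1 pHes1_EPC. It stood at 1.27, 3.11, 0.156 and 0.131, so it was higher at P1 than at P4 in both fractions (differences of P4 from P1 of -0.97 and -1.86). The microglia markers summed to 7.53 in P1 pHes1_EPC and 5.94 in P4 pHes1_EPC, and their part in the value of Kcna3 was not tested.

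Kcnb2, a delayed rectifier of neurons (chr1:15302533-15704295), was clearly a gene of the EGFP-negative cells at both ages. It stood at 2.53, 0.246, 2.36 and 0.226, and pHes1_ENC was 10.3 times pHes1_EPC at P1 (range 6.87 to 17.2) and 10.4 times at P4 (6.75 to 17.5). Its level in pHes1_ENC was nearly the same at both ages, with a difference of -0.07. Amigo1, an adhesion protein that joins such channels, stood at 7.36, 4.90, 8.98 and 3.94 (-0.50 and -1.01).

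The silent subunit Kcnv2, which forms no channel alone and modifies delayed rectifiers of photoreceptors (chr19:27397109-27411669), was the highest channel gene in P4 pHes1_ENC. It stood at 6.70, 0.454, 34.6 and 4.50, and pHes1_ENC was 14.8 times pHes1_EPC at P1 (range 10.8 to 21.5) and 7.69 times at P4 (6.54 to 8.71). From P1 to P4 it was 5.17 times higher in pHes1_ENC (4.46 to 5.76) and 9.93 times higher in pHes1_EPC (7.15 to 14.7). The other 9 silent modifiers of the families Kcnf, Kcng, Kcns and Kcnv stayed below 1, with a highest value of 0.665.

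The rod markers moved with Kcnv2, since 6 of 8 were lower in pHes1_EPC at P1, 8 of 8 were lower at P4, and 8 of 8 in pHes1_ENC and 7 of 8 in pHes1_EPC were higher at P4 than at P1. The rod sum of 427, 28.9, 3024 and 587 differed in order from Kcnv2, since P4 pHes1_EPC was above P1 pHes1_ENC. The part of rods within the EGFP-positive sort in the P4 value of Kcnv2 was not tested.

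Among the Kv3 channels, which close fast and allow high firing rates, Kcnc1 and Kcnc2 were higher in EGFP-negative cells at P1. Kcnc1 stood at 4.58, 0.484, 2.62 and 0.788 and was lower in pHes1_EPC at both ages (differences -1.91 and -1.02). Kcnc2, expressed in inhibitory neurons, stood at 10.2, 3.40, 1.97 and 1.39, so it was lower in pHes1_EPC at P1 (-1.35) and lower at P4 than at P1 in pHes1_ENC (-1.92). Kcnc4 reached 0.848 in P1 pHes1_ENC.

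Among the Kv4 channels, which carry A-type currents that inactivate quickly, Kcnd3 provided nearly all of the signal. Kcnd3 (chr3:105255248-105476920) stood at 12, 1.76, 11.4 and 3.07, and pHes1_ENC was 6.79 times pHes1_EPC at P1 (range 5.70 to 8.22) and 3.72 times at P4 (3.19 to 4.36). Its level in pHes1_ENC hardly moved between the ages, with a difference of -0.06. Kcnd1 lay between 0.659 and 1.61, and Kcnd2 reached 0.168.

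The partners of Kv4 channels followed other patterns. Kcnip1, a calcium-binding subunit of these channels (chr11:33529341-33893193), stood at 10.4, 0.334, 0.880 and 0.131, and P1 pHes1_ENC was 31.0 times P1 pHes1_EPC (range 18.2 to 68.0) and 11.8 times P4 pHes1_ENC (8.21 to 18.5). Kcnip3, which encodes calsenilin, a channel subunit and transcriptional repressor, stood at 5.59, 0.575, 0.947 and 2.58. For Kcnip3 pHes1_ENC was 9.72 times pHes1_EPC at P1 (6.62 to 15.8), and at P4 pHes1_EPC was instead 2.73 times pHes1_ENC (1.82 to 4.28). Kcnip4 lay between 0.837 and 1.72, and Kcnip2 reached 0.459. Dpp6, an extracellular partner, stood at 9.87, 8.38, 2.86 and 4.01.

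Of the Kcnq channels, which damp repeated firing, Kcnq1, Kcnq3 and Kcnq5 stayed below 1 in every library, with a highest value of 0.952 for Kcnq3.

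In the family of Kcnh channels, which holds the EAG, ERG and ELK groups, the highest gene was Kcnh2, the ERG channel best known from cardiac repolarization. It stood at 7.85, 7.87, 3.68 and 7.37, so P4 pHes1_ENC was the low library (differences 0.00 at P1 and 0.84 at P4). Kcnh7, another ERG channel, stood at 0.627, 0.382, 0.109 and 2.1, high in P4 pHes1_EPC alone, with a ratio of 19.2 to P4 pHes1_ENC (range 9.98 to 47.1). Kcnh6, the remaining ERG gene, stood at 2.53, 0.367, 2.05 and 0.385 and was lower in pHes1_EPC at both ages (-1.37 and -1.14).

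The other Kcnh genes were low. The EAG channel Kcnh5 stood at 1.47, 0.0790, 0.173 and 0.0399 (difference -1.20 at P1), and Kcnh8 reached 1.33 in P1 pHes1_ENC. Kcnh1, Kcnh3 and Kcnh4 stayed below 1.

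P4 pHes1_EPC, where Kcnh7 was high, also held signal of pigment epithelium genes. Ttr stood at 0, 0.112, 0.308 and 23.1, Tyr at 0.0123, 0.116, 0.0491 and 1.34, and the defining enzyme Rpe65 was listed at 0 in P1 pHes1_ENC and reached 0.422 in P4 pHes1_EPC. Tyrp1 stood at 1.39, 0.242, 3.51 and 5.64, and Best1 reached 0.266. The part of such cells in the P4 value of Kcnh7 was not tested.

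Among channels gated by calcium, Kcnn4 and Kcnn1 lay on opposite sides. Kcnn4, the intermediate-conductance channel (chr7:25155282-25170231), stood at 0.270, 1.61, 0.180 and 2.60. It was 5.97 times higher in pHes1_EPC at P1 (range 2.79 to 19.3) and 14.5 times higher at P4 (6.29 to 69.1), with wide ranges because the pHes1_ENC values are low. Microglia also express Kcnn4, and their 6 markers summed to 0.913 and 7.53 at P1 and to 4.02 and 5.94 at P4. Of these markers 3 were past a difference of 1 at P1 and 0 at P4. In P4 pHes1_EPC the microglial genes Tyrobp, P2ry12, Csf1r, Cx3cr1, Aif1 and Itgam stood at 2.12, 1.48, 1.14, 0.688, 0.401 and 0.114. The part of microglia in the values of Kcnn4 was not tested.

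Kcnn1, a small-conductance channel that follows action potentials, stood at 7.57, 0.840, 6.09 and 2.47 and was lower in pHes1_EPC at both ages (-2.22 and -1.03). Kcnma1, the pore of the large-conductance BK channel, stood at 1.68, 0.213, 1.92 and 0.421 and was also lower at both ages (-1.14 and -1.04, the former -0.93 with quantile normalization). Kcnn2 lay between 1.50 and 2.27 in all libraries. The other 4 genes of the group, Kcnn3, Kcnt1, Kcnt2 and Kcnu1, reached at most 0.248.

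The neuronal BK subunit Kcnmb4, which slows channel opening, did not follow its pore. It stood at 11.8, 4.94, 9.98 and 13.5, so that P1 pHes1_EPC was the low library and P4 pHes1_EPC the highest, with differences of -1.11 at P1 and 0.40 at P4. In pHes1_EPC it was 2.74 times higher at P4 than at P1 (range 2.00 to 3.86). Lrrc38, another BK subunit from the list of partners, stood at 1.64, 0.108, 8.84 and 1.69 and was lower in pHes1_EPC at both ages (-1.26 and -1.87). Kcnmb1, Kcnmb2 and Kcnmb3 reached at most 0.201.

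The Kcnab genes encode beta subunits that bind Kv1 channels from the inside. Kcnab1 stood at 4.42, 0.520, 3.26 and 0.816 and was lower in pHes1_EPC at both ages (-1.83 and -1.23). Kcnab2 at 9.39, 4.86, 10.1 and 6.94 and Kcnab3 at 5.63, 5.31, 5.55 and 3.51 were within a difference of 1 in every comparison. These values contrast with those of the Kv1 pores, since all 3 beta subunits kept an FPKM above 3 in P4 pHes1_ENC, where no Kv1 gene exceeded 1.58.

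Of the single-span Kcne subunits, Kcne2 was the one with higher values. It stood at 1.20, 0.256, 6.19 and 2.99, so both P4 libraries lay above both P1 libraries, and P4 was 5.18 times P1 in pHes1_ENC (range 3.11 to 8.58) and 11.7 times in pHes1_EPC (5.88 to 31.5). The related Kcne1l, which the symbol rule did not include, stood at 48.2, 18.7, 104.7 and 60.1, also higher at P4 in both fractions (1.10 and 1.63). Kcne1, Kcne3 and Kcne4 reached at most 0.387.

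Between P1 and P4, more channel genes were lower than higher in pHes1_ENC, while in pHes1_EPC the balance turned with the scaling. In pHes1_ENC, 11 of 91 genes (12.1%) were lower at P4, compared with 5.94% of all genes, and 3 (3.30%) were higher, compared with 2.77%. In pHes1_EPC, 2 genes (2.20%) were lower, compared with 2.57% of all genes, and 6 (6.59%) were higher, compared with 4.17%, so that both shares lay near those of all genes. With FPKM rescaled to the same total 4 were lower and 3 higher in pHes1_EPC, and with a ratio above 2 and no pseudocount 18 were lower and 15 higher. Without rescaling and with the pseudocount, the intervals of the ages did not overlap for any counted channel gene. This too held for nearly all counted genes, since requiring it left 5.87% of all genes lower and 2.77% higher in pHes1_ENC. In pHes1_EPC it left 2.53% lower and 4.16% higher. The median difference was -0.12 in pHes1_ENC, with 68 genes below 0 and 19 above, and 0 in pHes1_EPC, with 41 below and 45 above. Over all genes the median was 0 in both fractions. In pHes1_ENC 9317 of all genes were below 0 and 8268 above, and in pHes1_EPC 6810 were below and 10599 above.

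The 11 genes that were lower at P4 in pHes1_ENC included Kcna1, Kcna5, Kcna6, Kcnc2, Kcnh5, Kcnip1, Kcnip3, Kcnj9, Kcnk1 and Kcnk2, with differences from -3.22 (Kcna5) to -1.01 (Kcnk2). With quantile normalization Kcnh5 and Kcnk2 were no longer past 1. This comparison uses the P1 pHes1_ENC library that also serves the comparison of the fractions at P1, so that the low values in both are not independent. Kcnip1 was at -3.09 between the fractions at P1 and at -2.60 between the ages, and Kcna6 at -2.25 and -1.81. Of the 11 genes lower in pHes1_EPC at both ages, 0 were counted as lower at P4 in pHes1_ENC, where 5.94% of all genes were. To be lower in pHes1_EPC at P4, a gene must keep expression in P4 pHes1_ENC, so these counts are not independent.

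Markers of other neurons were also lower at P4 in pHes1_ENC. Gad1 stood at 16.2 at P1 and 1.17 at P4, Slc32a1 at 20.4 and 2.84, and Pax6 at 246 and 28.3, while the amacrine glycine transporter Slc6a9 was higher at P4 (19.1 and 62.6). Of the 8 ganglion cell markers 6 were lower at P4 in pHes1_ENC and 3 in pHes1_EPC, with summed FPKM of 40.2 and 9.84 in pHes1_ENC. At P1 2 of the 8 ganglion cell markers were lower in pHes1_EPC than in pHes1_ENC, with sums of 21.5 and 40.2. The part of amacrine and ganglion cells in the P1 values of Kcna5 and Kcnip1 was not tested.

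**Figure D4:**
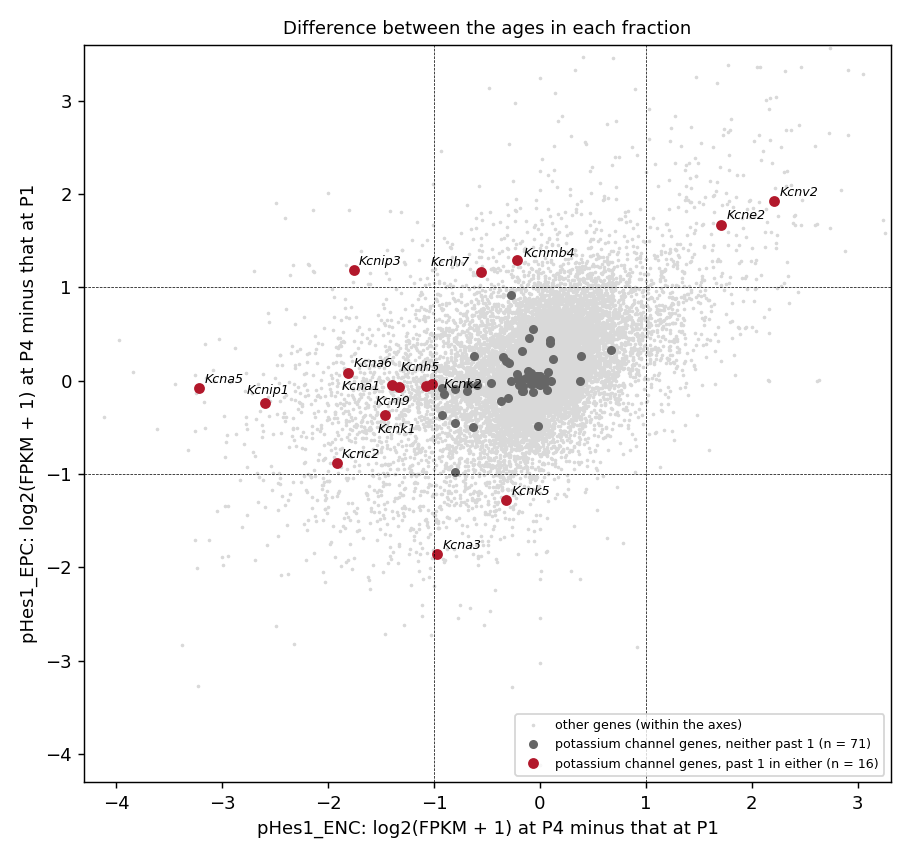
Difference in log2(FPKM + 1) between P4 and P1 in pHes1_ENC (horizontal axis) and in pHes1_EPC (vertical axis), with 1 point for each gene drawn (87 of the 91 potassium channel genes), dashed lines at differences of 1 and -1, and potassium channel genes past 1 in size in either fraction in red. Kcnv2 (2.21 and 1.92) and Kcne2 (1.71 and 1.67) lie at the top right, and Kcna5 (-3.22 and -0.08) lies at the far left.

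In pHes1_EPC the 6 genes that were higher at P4 included Kcne2 (1.67), Kcnh7 (1.17), Kcnip3 (1.19), Kcnmb4 (1.29) and Kcnv2 (1.92). Kcna3 and Kcnk5 were lower (-1.86 and -1.28). Kcne2 and Kcnv2 were higher at P4 in both fractions. When FPKM were rescaled to the same total, 3 genes were counted as higher in pHes1_EPC, since Kcnh7, Kcnip3 and Kcnmb4 dropped to differences below 1.

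The partner genes of these channels, a list of 25 that were all measured, split in the same comparisons. At P1 4 were higher in pHes1_EPC and 8 lower, and at P4 4 were higher and 6 lower. Of the hyperpolarization-activated channels, which pass potassium and sodium, Hcn4 stood at 10.4, 0.361, 2.06 and 0.150, lower in pHes1_EPC at both ages (-3.06 and -1.41). Hcn2 stood at 2.64, 0.739, 2.26 and 1.21 (-1.07 and -0.56), and Hcn3 at 5.18, 1.73, 2.27 and 1.54 (-1.18 and -0.37). Hcn4 resembled Kcna5 and Kcnip1 in that P1 pHes1_ENC was the high library.

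Partners that were higher in pHes1_EPC included Cntnap2, an adhesion protein that clusters Kv1 channels on axons. Cntnap2 stood at 3.34, 4.23, 1.16 and 15.6, high in P4 pHes1_EPC alone (differences 0.27 and 2.94). The water channel Aqp4, which lies beside Kcnj10 in the endfeet of mature Müller glia, was at most 0.395. Between P1 and P4, 4 of the 25 were higher and 4 lower in pHes1_ENC, and 4 were higher and 0 lower in pHes1_EPC.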

How the data were processed

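The RNA-seq data comprise 4 libraries, from cells sorted as EGFP-positive (pHes1_EPC) or EGFP-negative (pHes1_ENC) at P1 and at P4. Per the labels and the study's methods, TopHat 2.0.8b placed single-end 36-base reads on NCBI37/mm9, keeping reads with up to 50 positions. The authors then estimated FPKM per gene with Cufflinks 2.1.1, and the deposited tables also hold its 95% interval and a status. The processing notes also name bcl2fastq 1.8.4. The protocol names no step that marks strand, and 11 of the channel genes overlap another gene line. Read counts were not used here, so the precision of a value is that of its interval.

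Python 3.11.15 with numpy 2.4.6, pandas 2.3.3 and matplotlib 3.10.9 was used. Of 23021 gene lines, 787 of small RNAs were left out, and the line with the highest summed FPKM was kept for each symbol, which left 21828 genes. Differences were taken on log2(FPKM + 1), and genes past 1 in size were counted, over the channel genes and over all genes. Over genes with an FPKM of 1 or more in a library the median of pHes1_EPC minus pHes1_ENC was 0.02 at P1 and 0.15 at P4, and that of P4 minus P1 was -0.01 in pHes1_ENC and 0.17 in pHes1_EPC. Values are printed without removing these shifts. With FPKM rescaled to the same total these medians were -0.05, -0.09, -0.12 and -0.10. All 91 channel lines had the status OK.

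Channel genes are named if their FPKM reached 5, if a difference was past 1, or if they are inward rectifiers, and others are given by count, range or highest value. Those other channel genes that are named were chosen after their values were seen. The members and lists were chosen with earlier results of these data known. Other settings tried were 0.1 as the pseudocount, ratios above 2 without one, 3 scalings, filters on level, status and interval overlap, and summing the lines of a symbol. The amacrine markers Tfap2a and Tfap2b were not analysed here. Some genes that enter the counts are not reported by name or drawn.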

Additional observations from a re-analysis of the deposited data

Results flagged for a closer look

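In 2 of the 45 channel genes chosen by level, size of difference or family (inward rectifiers), the difference between the fractions had opposite signs at P1 and P4, with intervals apart at both ages. Kcnip3, the calsenilin gene, was at -2.06 at P1 and 0.88 at P4, and Kcnmb4, the neuronal BK subunit, at -1.11 and 0.40. Under the other scalings the P4 value of Kcnmb4 ran from 0.14 to 0.27. The P4 intervals of Kcnmb4 were only just apart, with a lower bound of 11.8 in pHes1_EPC and an upper bound of 11.5 in pHes1_ENC. With FPKM rescaled to the same total, these Kcnmb4 intervals would overlap. The change of difference between the ages was not tested, because there is 1 library in each group. The 45 genes were chosen partly by the size of these differences, and the share of all genes that met the same condition is not given here.

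In 4 of the same 45 genes the difference between the ages had opposite signs in the fractions, again with intervals apart in both. Kcnip3 was at -1.76 in pHes1_ENC and 1.19 in pHes1_EPC, Kcnh7 at -0.55 and 1.17, Kcnn1 at -0.27 and 0.91, and Kcnc1 at -0.62 and 0.27. These differences between the fractions were not tested either, and the share of all genes that met this condition is not given here. Outside these 45 genes, Kcng2 met both conditions at trace levels, with FPKM of 0.0836 in P1 pHes1_ENC, 0.0737 in P4 pHes1_EPC and 0 in the other libraries, and with differences of -0.12 and 0.10 in each contrast.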

How the results depend on the processing

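Each of the 8 counts of channel genes was recomputed under 9 other settings, 72 values in all, of which 54 were within 1.5 times the reported count. These 54 include settings that could not change a count, namely the filters on status and level and the summing of lines. All 91 channel lines had the status OK, each symbol had 1 line, and a difference past 1 needs an FPKM above 1 in the higher library. With a pseudocount of 0.1, the genes higher in pHes1_EPC numbered 6 at P1 and 8 at P4, and those lower 37 and 20, while 5 were higher and 29 lower at P4 in pHes1_ENC, and 10 higher and 9 lower at P4 in pHes1_EPC. With a ratio above 2 and no pseudocount, the corresponding counts were 10 and 16, 46 and 31, 10 and 41, and 15 and 18. These settings also raise the share of all genes counted. With FPKM rescaled to the same total, 3 genes were higher and 4 lower at P4 in pHes1_EPC. With quantile normalization Kcnj11 at P4 (0.96) and Kcnk3 (-0.87) and Kcnma1 (-0.93) at P1 were no longer past 1. Of 460 differences between the fractions, over the 45 named genes and the medians under 5 settings, 385 moved by less than the half-width of their interval and 75 by more, and 0 of those past 1 in size changed sign. Among these settings, summing the lines of a symbol could move none of the values.

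No paired analysis was possible because each group has 1 library, and with 1 library in each group none was left out in turn. Animal-to-animal error is unknown, and values under an FPKM of 1 rest on wide intervals.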

Other observations

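The cotransporters that move potassium with chloride divided between the fractions. Slc12a5, the neuronal form that lowers chloride in mature neurons, stood at 10.9, 1.04, 15.1 and 2.08 (P1 before P4 and, within each age, pHes1_ENC before pHes1_EPC). Slc12a4 at 2.08, 8.0, 1.35 and 7.01 and Slc12a7 at 3.51, 8.80, 1.64 and 5.52 had the opposite order, with both pHes1_EPC libraries above both pHes1_ENC libraries. Slc12a2, which brings chloride in, stood at 7.85, 10.2, 8.57 and 8.48. With 1 library in each group these differences were not tested.

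Dag1, part of the complex that anchors Kcnj10 in glial endfeet, stood at 29.4, 74.7, 27.0 and 38.2.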
